A study of Mus musculus with 18 samples.

Results

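The untreated FatK1 arrays were compared with the untreated FatK5 arrays, 3 against 3 of the 18 arrays of the series, and each array was assigned to its set by its label. Each array carried 45281 Illumina bead probes, of which 43 were left out because at least 1 of their signals was printed in more than 7 significant digits. Per the labels, both sets came from mice on a C57Bl/6 background, aged 17 weeks, and carried Fapbl-Cre and Apc2lox14/+ in a genotype abbreviated FatK. FatK1 is labelled mice#1 and FatK5 mice#5. The tissue is given as Colon and the cells as CDCP1+ tumor inducing cells (TICs), captured from dissociated tumors with antibody-bearing magnetic beads. These cells were kept with Dox for 24 h and, unlike the shFoxd3 arrays of the same 2 mouse labels, received no shRNA against Foxd3. The labels do not expand the Cre name Fapbl. Each label names 1 mouse, though sex-linked transcripts, given below, differed between arrays of 1 label. Mouse, piece of tissue and batch cannot be told apart in any difference given here. The labels also do not say that the 3 arrays of a set came from separate cultures, and the p-values then reflect no more than array-to-array spread, possibly technical.

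Brown fat burns fatty acids in its mitochondria and releases the energy as heat through the uncoupling protein Ucp1, and its fat cells store triglyceride in many small lipid droplets. Skeletal muscle contracts by sliding actin and myosin filaments that are switched on by calcium, and it fuels bursts of work from glycogen, glycolysis and a creatine phosphate store. Both tissues are rich in mitochondria, and brown fat cells and muscle fibres are known to arise from related precursors in the mouse embryo. On these arrays FatK1 carried the fat and heat-producing program, FatK5 carried the contractile program, and the respiratory chain transcripts of both lay much closer together.

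The arrays went against their labels. Of 22 colon epithelial markers with a probe, 11 were detected on no array of the comparison (detection p-value below 0.05), among them Epcam, Cdx1, Cdx2, Krt8, Krt18, Krt20 and Lgr5, and 4 passed the filter for testing. Lgals4, a galectin of gut epithelium, was higher in FatK1 (2.22 ± 0.30 on the log2 scale), and Tspan8, a tetraspanin, was detected on the 3 FatK5 arrays with signals of 349, 332 and 282 and on no FatK1 array (at least 13.6-fold higher). The summed signal of the list was 397 to 1040 in FatK1 and 498 to 600 in FatK5. Cdcp1, the surface protein used for the sort, had 4 probes with signals between -8.42 and 11.3, and 1 of them was detected, on 2 FatK1 arrays. Foxd3 lay between -6.24 and 7.37 with no detection on these 6. Apc, named in the genotype, was tested with 1 of its 4 probes. That probe was detected on the 3 FatK1 arrays and on no FatK5 array and was at least 1.61-fold higher in FatK1, and the others were detected on at most 1 array of a set. The cells are therefore called by their mouse labels below.

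Arrays of 1 label also differed in the sex-linked transcripts. The X-linked non-coding RNA Xist gave 5.39, 1174 and 13.6 on FatK1 arrays 1, 2 and 3 and 9.69, 860.0 and -2.07 on FatK5 arrays 1, 2 and 3, whereas the Y-linked Eif2s3y gave 872, -4.95 and 794 and 687, 8.31 and 744. Array 2 of each set thus had Xist and no detectable Eif2s3y, and arrays 1 and 3 had Eif2s3y and Xist signals of at most 13.6, although each label names 1 mouse. Values below are given in the same order of arrays.

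Signals were background corrected, quantile normalised over all 18 arrays and tested with limma on the log2 scale, where a difference of 1 is 2-fold. A probe was tested if detected on at least 3 of the 6 arrays, and each gene was represented by its tested probe with the highest mean. A gene detected on the 3 arrays of 1 set alone thus passed this filter through the set where it was high. Differences are FatK1 minus FatK5 with the standard error of the fit (n = 3 arrays against 3), and a gene rose or fell if its Benjamini-Hochberg adjusted p was below 0.05. The fit took all 18 arrays as 6 groups with 1 shared spread per probe. Where a gene was detected on no array of a set, its fold is given as a lower bound, the mean of the bright set against, array by array, the faintest normalised signal among detected probes or the gene's own signal where that was higher. Correlations of log2 values were 0.960 to 0.986 within FatK1, 0.960 to 0.981 within FatK5 and 0.775 to 0.825 between them.

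The separation was broad. Of 19397 probes tested, 53.1% were called, 29.5% higher in FatK1 and 23.5% higher in FatK5, and on 53.9% the sets did not overlap, so every count of genes below stands against a high background. In such bulk RNA, fewer cells of a type and less RNA per cell cannot be told apart. At 8-fold or more, the split turned towards FatK5, with 255 probes (1.31%) higher in FatK1 and 498 (2.57%) in FatK5. Counted by gene, 3193 of 10580 were higher in FatK1 (30.2%) and 2629 in FatK5 (24.8%), 55% in all, with a median difference over all genes of 0.06. Lists for 27 programs and 13 cell types covered 665 genes, of which 604 had a named probe, and the plot of program lists shows where each of the 430 tested program genes fell.

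**Figure D1:**
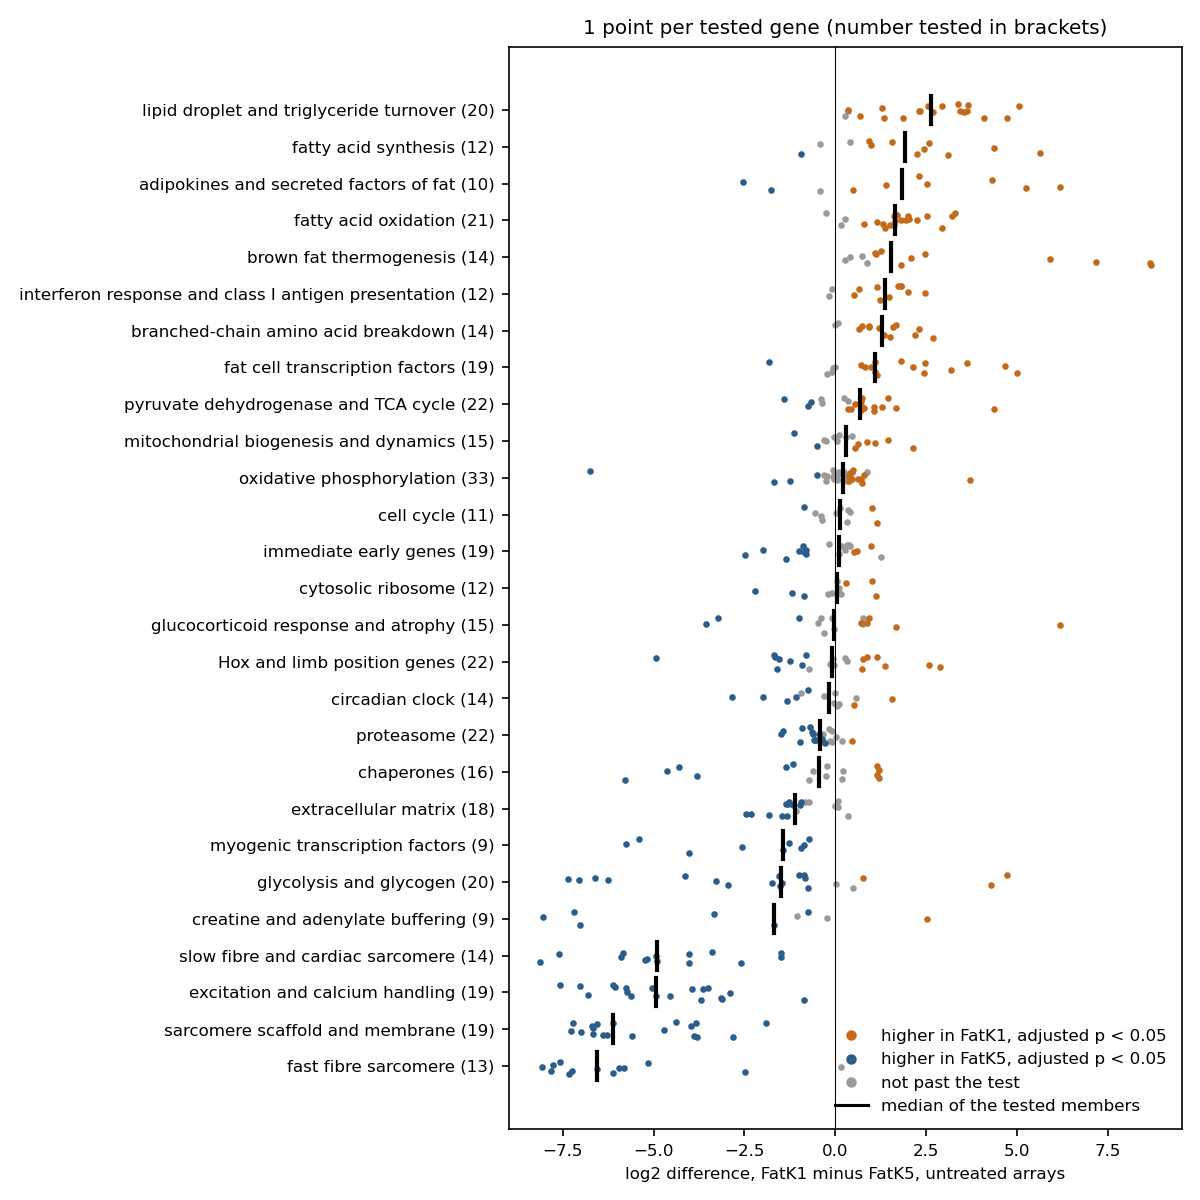
Log2 difference (FatK1 minus FatK5, untreated arrays) of each tested gene of the 27 program lists, coloured by direction among genes with a limma adjusted p below 0.05, with the median of each list as a black bar. Lipid storage and fatty acid lists sit to the right, with medians of up to 2.63, and the sarcomere lists to the left, down to -6.57, while respiratory chain and ribosome lists straddle 0.

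Brown fat thermogenesis separated the sets most completely at its defining genes. Of 20 genes listed, 16 had a probe and 14 were tested. Of these, 10 rose in FatK1, 0 in FatK5 and 4 did not pass, with a median of 1.54 (1.44 with 5 genes at their bound). With detection required on all 6 arrays, 7 were tested and 4 rose in FatK1. The uncoupling protein Ucp1 gave 10900, 4238 and 7479 on the FatK1 arrays and -5.09, -5.77 and -14.1 on the FatK5 arrays, where it was not detected. It was at least 317-fold higher in FatK1 (limma adjusted p = 6.02e-13). Cidea, a lipid droplet protein of brown fat, read 10530, 7148 and 9744 against 5.93, 10.1 and 9.54, at least 388-fold higher (adjusted p = 1.02e-13). All FatK1 arrays stood above all FatK5 arrays for both genes, and neither was detected in FatK5. Slc27a2, a fatty acyl-CoA ligase, and Kcnk3, a potassium channel of brown fat, followed at least 119-fold and 5.92 ± 0.15 higher. The regulators of the brown fat state were fainter and also higher in FatK1. Prdm16, which directs precursors to brown fat, gave 45.2, 62.9 and 72.6 and was detected on no FatK5 array (at least 3.08-fold higher), and Ebf2, its partner in brown fat commitment, was 2.47 ± 0.17 higher. Ppargc1a, the coactivator of mitochondrial biogenesis, was detected on all 6 arrays and was 1.09 ± 0.28 higher (adjusted p = 0.00305). The 4 tested genes that did not pass were Cox8b, Cox7a1, Dio2 and Cpt1b, of which Cox8b passed with array number as a block (0.87, adjusted p = 0.00132) and Cox8b and Cpt1b with median scaling between arrays. The first pair are subunit isoforms of cytochrome c oxidase found in muscle and in brown fat, and Cpt1b, the carnitine transferase of both tissues, gave 3058, 2854 and 3208 against 2586, 3037 and 2316. Elovl3 and Bmp8b were detected on none of the 6 arrays.

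Lipid droplet and triglyceride genes rose in FatK1 in 18 of 20 tested, with 0 falling, a median of 2.63 and 16 of them at least 2-fold higher. With array number as a block or with the 6 arrays alone 16 rose, and with median scaling 20. With the series matrix values or without FatK1 array 1, 15 rose. Cidec, which enlarges lipid droplets, read 4630, 5372 and 5276 against 149, 160.2 and 156, a difference of 5.05 ± 0.22 (adjusted p = 3.59e-12). The droplet coat protein Plin1 was 4.73 ± 0.16 higher and the hormone-sensitive lipase Lipe 3.64 ± 0.22. Both enzymes of the last step of triglyceride synthesis took part, Dgat1 by 3.67 ± 0.21 and Dgat2 by 3.55 ± 0.20. Fabp4, the fatty acid carrier of fat cells, gave 3171, 3518 and 2694 and 279, 357 and 302. It was thus detected on all FatK5 arrays too, at a level 3.43 ± 0.13 lower on the log2 scale. The lipoprotein lipase Lpl, which muscle also makes, had a small difference (0.69 ± 0.28, adjusted p = 0.0448), and the call was lost when any 1 of the 6 arrays was left out.

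Hormones and regulators of fat cells were also mostly higher in FatK1. Among secreted factors 7 of 10 tested rose in FatK1 and 2 fell. Angptl4, an inhibitor of lipoprotein lipase, read 5786, 7452 and 6301 against 108, 111 and 47.6 (6.18 ± 0.26, adjusted p = 2.41e-12). Nrg4, a growth factor secreted by brown fat, was at least 38.5-fold higher, and the adipokine Adipoq gave 9936, 9353 and 8707 against 552, 360.3 and 459 (4.32 ± 0.39). The chemokine Cxcl14 went the other way (-2.55 ± 0.30), as did the angiotensin precursor Agt (-1.77 ± 0.29), and resistin, Retn, was not detected in either set. Of 19 transcription factors of fat cells tested, 14 rose and 1 fell. Pparg, the master regulator of fat cell differentiation, gave 3177, 2880 and 3272 against 88.5, 129.7 and 85.7 (5.00 ± 0.14, adjusted p = 2.04e-14), with all 3 of its probes called the same way. Cebpa, its partner, was detected on no FatK5 array and was at least 19.5-fold higher. Ppara, the fatty acid sensor of oxidative tissues, was 3.63 ± 0.31 higher and the coactivator Ppargc1b 2.15 ± 0.21. Esrrb fell (-1.84 ± 0.17), and Rxra, Esrrg, Klf15 and Klf9 did not pass, with differences between -0.23 and 0.01.

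Genes for burning fat and genes for making it were both higher in FatK1. Fatty acid oxidation had 18 of 21 tested genes higher in FatK1 and 0 lower, 17 by 2-fold or more, with a median of 1.64. Acads, the short-chain acyl-CoA dehydrogenase, was 3.22 ± 0.25 higher, and Acaa2, the last enzyme of the cycle, 2.95 ± 0.13 with 4 of 4 probes called. Carriers of electrons from the cycle to the respiratory chain were included, with Etfdh 1.81 ± 0.17 and Etfa 1.14 ± 0.08 higher. Etfa gave 21160, 20940 and 21290 against 8326, 9295 and 7665, high on all 6 arrays. Fatty acid synthesis had 9 of 12 higher and 1 lower. Thrsp, a lipogenic nuclear protein, was 5.64 ± 0.60 higher, the elongase Elovl6 4.38 ± 0.27, and Acly, which makes cytosolic acetyl-CoA from citrate, 2.58 ± 0.19. The malic enzyme Me1 was lower (-0.94 ± 0.22). Fasn and Acaca, the core enzymes of the pathway, passed no filter, and their probes read between -6.57 and 20.4 on all 6 arrays. Scd1, the stearoyl-CoA desaturase, gave 1761, 179 and 1217 against 735, 442 and 649.7 and did not pass (adjusted p = 0.614); FatK1 array 2 lay below all FatK5 arrays.

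Downstream mitochondrial programs shifted less. Breakdown of branched-chain amino acids, a fuel that brown fat takes up in the cold, had 12 of 14 genes higher in FatK1 and 0 lower (median 1.28). Auh, a hydratase of leucine breakdown, was 2.71 ± 0.19 higher, and the propionyl-CoA carboxylase subunits Pccb and Pcca were 2.31 ± 0.13 and 2.19 ± 0.22 higher. In the pyruvate dehydrogenase and TCA cycle list 15 of 22 rose and 3 fell, yet the median was 0.69 and 6 were 2-fold or more higher. With the series matrix values 8 rose. The largest difference was that of the isocitrate dehydrogenase subunit Idh3b, with 8375, 6241 and 8564 against 347, 468 and 299 (4.37 ± 0.13, adjusted p = 3.45e-14). Its partner subunits Idh3a and Idh3g, which assemble with it into 1 enzyme, differed by 1.28 ± 0.19 and 0.69 ± 0.09. Pdk4, the kinase that shuts pyruvate dehydrogenase, was 1.67 ± 0.57 higher, a call lost without FatK5 array 2 (1.02, adjusted p = 0.126) and also without FatK1 array 2 (1.50, adjusted p = 0.058). Sucla2, Mdh2 and Dlat, enzymes of the cycle and of its entry step, were lower (-1.40 ± 0.24, -0.76 ± 0.21 and -0.66 ± 0.19), the last pair not with median scaling (limma adjusted p = 0.0934 and 0.0598) or the series matrix values (0.119 and 0.29).

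The 10 largest rises in FatK1 outside the lists held Pck1, the enzyme of glyceroneogenesis in fat (7.18 ± 0.41), the kinase subunit Prkar2b (6.74 ± 0.24), the nucleotide enzyme Impdh1 (6.74 ± 0.25), the pentose phosphate enzyme Tkt (5.94 ± 0.46) and the carboxylesterase Ces1d (5.89 ± 0.58, or 4.85 without FatK5 array 2). Kng1 and Kng2 encode kininogens and Apoc1 an apolipoprotein, all better known from liver; Kng1 and Apoc1 were 6.87 ± 0.42 and 6.96 ± 0.26 higher and Kng2 at least 67.2-fold. Without FatK1 array 2 the difference of Kng1 was 7.70. Of 10 hepatocyte markers, 5 were detected on none of the 6 arrays, Alb among them, and 1, haptoglobin (Hp), was tested and higher (2.69 ± 0.27). Tmem45b was at least 221-fold higher, and Lncbate10, a long non-coding RNA of brown fat, 5.78 ± 0.39 (6.49 without FatK1 array 2).

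The contractile genes ran the other way, with larger differences. Of 13 tested genes of the fast sarcomere 12 fell in FatK1 and 0 rose (median -6.57), of 14 slow and cardiac genes 14 fell (-4.92), of 19 scaffold and membrane genes 19 (-6.13) and of 19 genes of excitation and calcium handling 19 (-4.93). All tested genes of these lists were detected on every FatK5 array and so passed the filter through FatK5. With detection required on all 6 arrays, 4 of 5, 2 of 2, 7 of 7 and 6 of 6 tested genes fell, in the same order. Myh4, the myosin of the fastest fibres, gave 22150, 23820 and 20420 on the FatK5 arrays and -1.32, 525 and 80.6 on the FatK1 arrays (-7.59 ± 0.73, adjusted p = 6.39e-08). The creatine kinase of muscle, Ckm, read 20750, 23390 and 19400 against 1.89, 1032 and 74.8, and titin, Ttn, the molecular spring of the sarcomere, 18600, 20730 and 15030 against 2.16, 1081 and 39.5. For these genes the FatK5 arrays were alike, whereas the FatK1 arrays spread widely, with array 2 the highest and array 1 at background. Other genes of these lists also spread within FatK5, as Csrp3 with 2358, 13250 and 3572, Sln with 158.7, 5263 and 365.9 and Casq1 with 2805, 1081 and 2459.

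**Figure D2:**
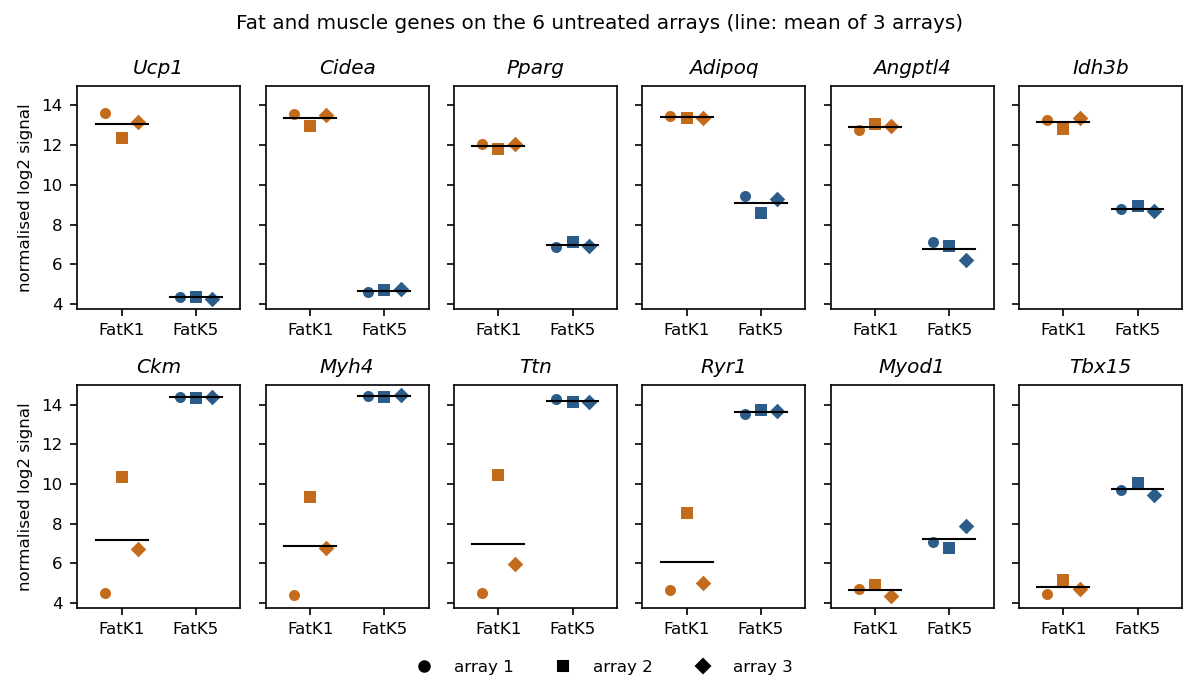
Normalised log2 signal of 12 genes on each of the 3 FatK1 and 3 FatK5 untreated arrays, with the mean of each set as a line and the array number as the symbol. Genes in the upper row do not overlap between the sets, with Ucp1 lowest on array 2 within FatK1 and Angptl4 lowest on array 3 within FatK5. In the lower row Ckm, Myh4, Ttn and Ryr1 are tight in FatK5. On FatK1 array 2 they reach 10.36 for Ckm, 9.36 for Myh4, 10.43 for Ttn and 8.53 for Ryr1.

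Muscle signal was higher on FatK1 array 2 than on the other FatK1 arrays. Summed over the fast sarcomere probes, the signal was 3493, 28440 and 5383 in FatK1 and 198600 to 234100 in FatK5; over the slow and cardiac probes it was 129, 9050 and 160 in FatK1 and 40660 to 51520 in FatK5. Myl2, a light chain of slow fibres, showed it most plainly, with 4.59, 2047 and 1.55 in FatK1 and 2879, 3797 and 3738 in FatK5. Without array 2 of both sets the 4 list medians were -7.97, -6.85, -6.89 and -5.06, with the same counts of falls. Acta1, skeletal actin, went from -5.15 ± 1.15 to -7.21, and Atp2a1, the calcium pump of fast fibres, from -6.05 ± 1.08 to -8.00; without FatK1 array 1 they were -3.03 and -4.18. Of the 254 named genes called, 53 moved by over 1.5-fold without FatK1 array 2, and 46 of these were genes higher in FatK5 whose difference grew. The log2 sizes of the muscle genes below carry that uncertainty. Without FatK1 array 1, 33 moved, and without FatK1 array 3, 12 moved. Without FatK5 array 2, 10 moved, and without FatK5 array 1 or FatK5 array 3, 3 moved.

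Within the fast list, Tpm1 was the 1 gene that did not pass (1208, 819.6 and 1074 against 1078, 984 and 936), and Myl1 had the smallest difference among those called (-2.47 ± 0.28). Mybpc2 and Actn3, a thick filament protein and an actin crosslinker of fast fibres, differed by -8.06 ± 0.43 and -7.77 ± 0.67. Among slow and cardiac genes the 2 largest were Actc1, cardiac actin (-8.13 ± 0.56), and Mybpc1 (-7.62 ± 0.76), while the slow myosin Myh7 was faint in both sets (4.50, 44.2 and 6.84 against 51.8, 101 and 72.8). Actc1 was at -7.27 without FatK5 array 1 and at -9.15 without FatK5 array 2. FatK5 thus carried genes of fast and of slow fibres. Scaffold genes ran from Dysf, a membrane repair protein (-1.91 ± 0.25), to Tcap, the cap of titin (-7.27 ± 0.98), and Cav3, Capn3 and Neb, at least 12.4, 19.7 and 5.50-fold higher in FatK5, were detected on no FatK1 array. Genes for release and for uptake of calcium were both included. The release channel Ryr1 gave 9932, 13300 and 10640 against 6.49, 306 and 13.7 (-7.59 ± 0.72) and all 5 of its probes were called, the calcium store protein Casq1 was at least 85.2-fold lower in FatK1 and not detected on any of its arrays, and the calcium buffer Pvalb was -6.12 ± 0.72. The pump of slow fibres and other tissues, Atp2a2, had the smallest difference of the list (-0.85 ± 0.19).

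The transcription factors that set muscle identity were higher in FatK5 as well. All 9 tested myogenic transcription factors fell in FatK1 (median -1.43, or -1.03 with 4 genes at their bound). All 9 were detected on every FatK5 array and 2 on every FatK1 array, so most passed the filter through FatK5 alone. With detection required on all 6 arrays, 2 were tested and 2 fell. The genes are faint, and the median was -2.56 with no background correction, -2.35 with the series matrix values and -0.79 with an offset of 50, with 9 falls in each. Myf6, the member of the MyoD family that adult fibres keep, gave 1679, 1426 and 1406 against 7.67, 41.5 and 6.03 (-5.77 ± 0.35, adjusted p = 1.45e-10). Mef2c was -4.03 ± 0.24 and the cofactor Vgll2 -5.39 ± 0.47. Myod1 gave 102, 100.1 and 170.1 against 7.13, 13.3 and -3.07, and Myog, detected on no FatK1 array, 46.7, 45.7 and 30.4 (at least 2.04-fold higher). Pax3, Pax7 and Mef2d were detected on none of the 6 arrays. The largest falls outside the lists were -6.98 to -7.58 and were led by Eef1a2, the elongation factor of muscle and neurons (-7.58 ± 0.85), followed by Sypl2, a protein of the muscle membrane system (-7.29 ± 0.60), and the thin filament cap Tmod4 (-7.16 ± 0.60). The splicing factor Rbfox1 (-7.14 ± 0.55), tropomyosin Tpm2 (-7.04 ± 1.00) and the sarcomere protein Klhl41 (-7.02 ± 0.73) were among the others.

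Genes of sugar and phosphate fuels were mostly higher in FatK5. Of 20 tested genes of glycolysis and glycogen 15 were higher in FatK5 and 3 in FatK1. Pygm, the glycogen phosphorylase of muscle, gave 2249, 2105 and 1830 against -4.60, 18.3 and 6.02 (-6.60 ± 0.31, adjusted p = 6.49e-12), and its activating kinase subunits Phkg1 and Phka1 were -6.24 ± 0.37 and -4.13 ± 0.29. Enzymes that every cell uses differed less, Gapdh by -1.73 ± 0.12, Aldoa by -1.52 ± 0.14 and Tpi1 by -1.54 ± 0.12, and FatK1 gave 6008, 4656 and 5182 for Gapdh against 21180, 22070 and 20310. In the creatine and adenylate list 6 of 9 were higher in FatK5 and 1 in FatK1. Ckmt2, the mitochondrial creatine kinase of muscle, differed by -8.04 ± 0.71, and Ampd1, the AMP deaminase of muscle, by -7.03 ± 0.63.

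In 5 pairs of related genes, 1 member was higher in each set. Phosphofructokinase was 4.74 ± 0.16 for the liver-type Pfkl and -2.95 ± 0.16 for the muscle-type Pfkm. Phosphoglycerate mutase split into Pgam1 (4.29 ± 0.18) and Pgam2 (-7.37 ± 0.55), and cytosolic creatine kinase into Ckb (2.52 ± 0.31) and Ckm (-7.19 ± 0.87). Of the cytochrome c oxidase subunit 6A, Cox6a1 gave 20380, 19870 and 21770 against 1195, 1555 and 1321 (3.71 ± 0.09, adjusted p = 5.08e-15) and the heart and muscle form Cox6a2 6.99, 2374 and 62.4 against 16280, 25040 and 19330 (-6.76 ± 1.04, adjusted p = 2.4e-05). Ribosomal protein Rpl3 was 1.14 ± 0.16 and Rpl3l, which replaces it in muscle, -7.02 ± 0.68. These pairs were chosen after their values were seen. Probes of related genes can share target sequence, and no cross-hybridisation was measured here.

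**Figure D3:**
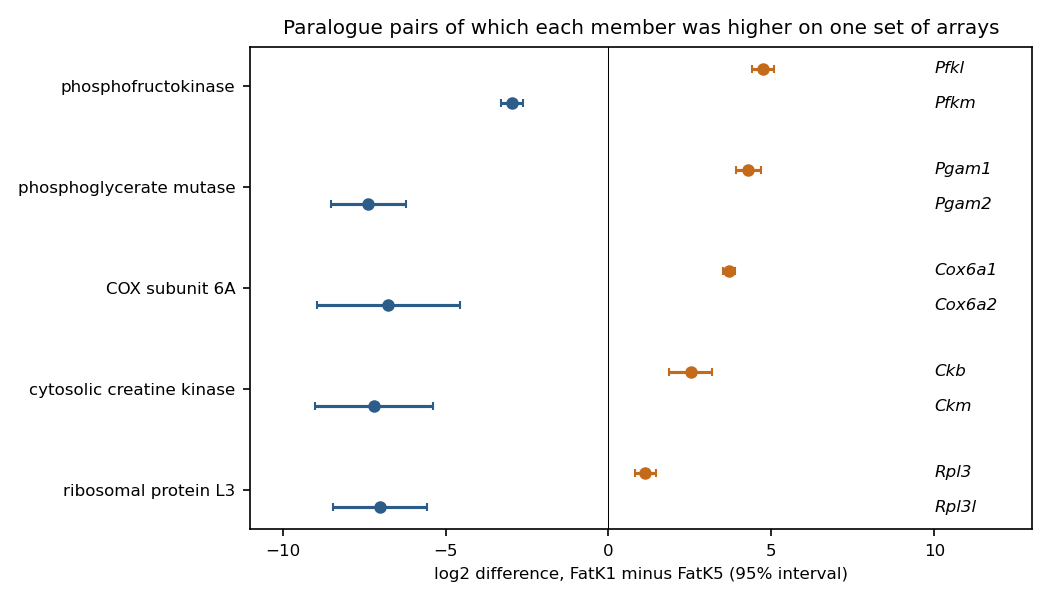
Log2 difference (FatK1 minus FatK5) with its 95% interval for both members of 5 pairs of related genes. In each pair one member lies to the right of 0 and the other to the left, and the intervals of the muscle forms are wide where FatK1 array 2 carried muscle signal, as for Cox6a2.

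Promoter windows of 4 genes that carry the contrast are shown, 250 bases before to 50 bases after the annotated start, from RefSeq on GRCm38.p6, read along the strand of the gene. Capitals mark matches on either strand to 6 motifs: TATAAA (a form of the TATA box), CAGCTG (an E-box of myogenic factors), CTAAAAATA (a MEF2 site), the CArG box of serum response factor, AGGTCA (a nuclear receptor site) and CCAAT. A CArG box can contain TATAAA or CCAAT, and such a match counts for both. Acta1 lies at chr8:123894726-123895025 (minus strand), Ckm at chr7:19410844-19411143 (plus), Ucp1 at chr8:83290098-83290397 (plus) and Adipoq at chr16:23146286-23146585 (plus).
Acta1: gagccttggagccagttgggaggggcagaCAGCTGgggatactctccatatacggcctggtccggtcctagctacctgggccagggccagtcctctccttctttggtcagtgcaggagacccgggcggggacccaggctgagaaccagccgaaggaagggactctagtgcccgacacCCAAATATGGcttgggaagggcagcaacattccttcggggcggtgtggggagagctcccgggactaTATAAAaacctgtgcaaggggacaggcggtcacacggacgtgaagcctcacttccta
Ckm: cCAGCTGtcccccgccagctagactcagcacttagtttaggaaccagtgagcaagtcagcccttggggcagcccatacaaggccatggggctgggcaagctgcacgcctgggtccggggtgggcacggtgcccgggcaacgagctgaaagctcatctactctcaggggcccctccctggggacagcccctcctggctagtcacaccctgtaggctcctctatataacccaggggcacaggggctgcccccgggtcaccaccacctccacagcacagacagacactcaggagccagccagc
Ucp1: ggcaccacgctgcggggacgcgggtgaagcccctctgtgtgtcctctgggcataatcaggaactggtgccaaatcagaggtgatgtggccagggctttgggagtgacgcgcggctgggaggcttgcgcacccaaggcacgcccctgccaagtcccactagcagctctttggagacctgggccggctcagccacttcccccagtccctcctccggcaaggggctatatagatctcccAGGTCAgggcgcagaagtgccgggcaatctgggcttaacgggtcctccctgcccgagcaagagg
Adipoq: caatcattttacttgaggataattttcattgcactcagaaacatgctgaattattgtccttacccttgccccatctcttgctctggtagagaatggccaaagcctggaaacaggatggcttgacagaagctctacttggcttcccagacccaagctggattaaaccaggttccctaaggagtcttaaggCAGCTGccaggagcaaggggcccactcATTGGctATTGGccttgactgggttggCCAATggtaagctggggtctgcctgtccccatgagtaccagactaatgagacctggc

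Acta1 holds TATAAA, an E-box and a CArG box in this window, and Ckm 1 E-box. Other forms of these motifs were not searched, so tatataa in Ckm and tatata in Ucp1 are not marked. Ucp1 holds AGGTCA once, and Adipoq 3 CCAAT boxes and an E-box. Over the 343 promoters of the 246 matched genes that were 8-fold or more higher in FatK5, CAGCTG occurred in 27.1%, against 15.5% of the 10990 promoters of tested genes and 16.3% of all 32851. The MEF2 letters were found in 2.62% of them against 0.3% of tested and 0.517% of all promoters, and the CArG box in 4.08% against 1.43% and 1.63%. For the 169 promoters of 123 matched genes 8-fold or more higher in FatK1, CAGCTG stood at 16%, CTAAAAATA in 0, the CArG box at 0.592% and AGGTCA at 18.9%. AGGTCA was found in 15.2% of the FatK5 set, 12.5% of tested promoters and 16.3% of all promoters. CCAAT was found in 27.8% of the FatK1 set, 35.3% of the FatK5 set, 37.5% of tested and 37.4% of all promoters. TATAAA was found in 10.7%, 13.7%, 7.98% and 13.6% in the same order. These shares describe letters in a short window, and no binding was measured.

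The sets were close in much of the nuclear-encoded respiratory chain and the ribosome under quantile normalisation. A gene was called shared if it was detected on all 6 arrays and the 95% interval of its difference stayed within 0.5 of 0 on the log2 scale (1.41-fold), which held for 1070 genes (10.1%). Among 33 tested nuclear genes of oxidative phosphorylation 11 were shared, 11 were higher in FatK1, 4 were higher in FatK5, and the median was 0.22. Atp5b, the catalytic subunit of ATP synthase, gave 24390, 24730 and 25780 against 23840, 27050 and 23400 (-0.02 ± 0.08, 95% interval -0.18 to 0.14). The oxidase subunit Cox5a gave 16300, 13600 and 15320 against 15380, 14220 and 14790. Apart from Cox6a1 and Cox6a2, the differences of the list lay between -1.68 (Atp5j, of which 1 of 3 probes was called the other way) and 0.87 (Cox8b). The mitochondrially encoded COX2, ND1, ND4, CYTB and ATP6 were among the 10 shared genes named for their high signals, with differences of 0.03 to 0.16, together with the ferritin chain Fth1, Cox6c, Rplp1 and Rpl23. Being shared was the condition for naming these 10, and the mitochondrial genome was not tested as a list. The highest signal of a tested probe on the 6 arrays was 30980, and compression of differences near that level was not tested. Of 12 tested cytosolic ribosome genes 6 were shared, 3 were higher in FatK1 and 3 in FatK5, the largest difference being that of Rplp0 (16.8, 32.3 and 12.6 against 122, 183 and 127, -2.22 ± 0.20). Rplp1 read 19390, 23420 and 19240 against 16370, 26660 and 17530, and whether the faint Rplp0 probe reports its gene was not tested. Of 15 tested genes of mitochondrial biogenesis and dynamics, 6 were higher in FatK1, 2 in FatK5 and 3 shared, with differences from -1.14 to 2.15. Tfam and Nrf1, regulators of mitochondrial transcription, were at 0.10 ± 0.14 and 0.06 ± 0.15, and the coactivators Ppargc1a and Ppargc1b were higher in FatK1 (1.09 ± 0.28 and 2.15 ± 0.21).

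How close these genes were depended on the scale between arrays. With arrays set to 1 median in place of quantiles, the median over all probes moved from 0.07 to 0.19, none of those 10 genes stayed inside the limits and all 10 were called higher in FatK1 (0.44 to 0.70). Under that scaling 25 of the oxidative phosphorylation genes and 8 of the ribosome genes were higher in FatK1, and 719 genes were shared, 375 of them in common. Differences are therefore relative to the normalisation.

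Proteasome genes were higher in FatK5 by small amounts. Of 22 tested proteasome genes 13 were higher in FatK5 and 1 in FatK1 (median -0.40), with the ATPase Psmc3 at -1.50 ± 0.13 and Psmc6 at -1.43 ± 0.18; with median scaling 6 were higher in FatK5, and with the series matrix values 4. The immunoproteasome subunits Psmb8 and Psmb10 were higher in FatK1 by 1.74 ± 0.16 and 1.81 ± 0.18, and Psmb9 gave 212, 261 and 262 against 32.2, 141 and 41.1. They belong to the interferon and class I antigen list, of which 10 of 12 rose in FatK1 and 0 fell (median 1.37), including the peptide transporter Tap2 (2.48 ± 0.25), H2-K1 (1.81 ± 0.18) and B2m (1.25 ± 0.09). The interferon-induced Ifit2 and Ifit3 did not pass (-0.18 and -0.09). Among chaperones the small heat shock proteins of muscle were higher in FatK5, with Hspb7 at -5.79 ± 0.55, Hspb6 at -4.63 ± 0.51, Hspb8 at -4.29 ± 0.30 and Cryab at -3.80 ± 0.43. The mitochondrial pair Hspd1 and Hspe1 was higher in FatK1 by 1.15 ± 0.13 and 1.21 ± 0.13. The ubiquitin ligases of muscle wasting, Trim63 and Fbxo32, were higher in FatK5. Trim63 gave 167, 212 and 133 and was not detected in FatK1 (at least 7.16-fold higher), and Fbxo32 gave 225, 1647 and 478 against 19.7, 109 and 19.9. Fbxo32 was highest on array 2 of each set. Both belong to the list of glucocorticoid response and atrophy, of which 5 of 15 tested were higher in FatK1, Angptl4 and Pdk4 among them, and 3 in FatK5. Without FatK1 array 2 or without FatK5 array 1, 3 were higher in FatK1 and 4 in FatK5. The glucocorticoid target Tsc22d3 was higher in FatK5, reading 2362, 2886 and 2516 against 1062, 1229 and 1254, and Per1, Klf15 and Fkbp5 did not pass.

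Genes that record position along the body differed in both directions. Of 22 tested Hox and limb genes 7 were higher in FatK1 and 8 in FatK5. Higher in FatK1 were members of the 2 to 6 groups, with Hoxc6 at 2.89 ± 0.25, Hoxb4 at 2.60 ± 0.32, Hoxa4 at 1.37 ± 0.25, Hoxa5 at 0.88 ± 0.26, Hoxb2, Hoxa2 and Hoxb5. Higher in FatK5 were Hoxa7, Hoxa9, Hoxd9 and Hoxd10, of which Hoxa9 and Hoxd10 were detected on no FatK1 array. Tbx15, a factor of fast muscle and of some fat depots, gave 665, 1011 and 518 in FatK5 and 0.239, 20.2 and 7.84 in FatK1 (-4.95 ± 0.22, adjusted p = 4.05e-12). Tbx4, a hindlimb factor, and En1, a patterning factor, were also higher in FatK5 (55.9, 59.0 and 41.3 and 86.6, 102 and 70.2), whereas Tbx5 and Pitx1 were near background in both.

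Matrix genes were higher in FatK5 in 11 of 18 tested and in FatK1 in 0 (median -1.11). The collagen chains Col1a1 and Col1a2 differed by -2.31 ± 0.61 and -2.45 ± 0.56, but with a wide spread, since Col1a1 gave 5923, 809 and 7257 in FatK5 and 1036, 361 and 609 in FatK1. Array 2 was the lowest of each set, and the difference of Col1a1 was -3.42 without FatK5 array 2 and -1.67 without FatK5 array 3, where 7 matrix genes were called. Decorin, Dcn, was tighter (6013, 6147 and 5412 against 13600, 11390 and 11410), and Sparc and the basement membrane chain Col4a1 overlapped between the sets (0.00 ± 0.26 and 0.08 ± 0.21). Cell cycle genes were faint in both, with 5 of 16 not tested and 2 higher in FatK1 and 1 in FatK5. Of 14 clock genes tested 2 were higher in FatK1 and 5 in FatK5. Per2 was higher in FatK1 (1.58 ± 0.32), and Bhlhe40, Nr1d2 and Arntl in FatK5 (-2.83 ± 0.34, -1.98 ± 0.44 and -1.08 ± 0.25). Nr1d2 was at -2.81 without FatK1 array 2. Among immediate early genes 8 of 19 were higher in FatK5, with Fos at -2.48 ± 0.62 and Atf3 at -1.98 ± 0.40, and 3 in FatK1; without FatK1 array 3, 5 were higher in FatK5, and without FatK1 array 1 or FatK1 array 2, 1 was higher in FatK1.

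Markers of further cell types were present on both sets. Endothelial markers were detected on all 6 arrays in 13 of 13 genes, with Pecam1 shared (544, 707 and 604 against 620.1, 941 and 569.9), Cldn5 higher in FatK1 (2.52 ± 0.28) and Vwf in FatK5 (-1.53 ± 0.19). In all, 4 were higher in FatK1, or 7 without FatK1 array 2. Their summed signal was 8807 to 9131 in FatK1 and 6304 to 9758 in FatK5. Macrophage markers were likewise all detected (13 of 13), with 5 higher in FatK1 by 0.76 to 1.07, which became 3 without FatK1 array 1, FatK1 array 2 or FatK5 array 3, and 8 with array number as a block, and sums of 2239 to 3194 and 1368 to 2510. Nerve and Schwann cell markers were higher in FatK5 in 5 of 6 and in FatK1 in 1 (0.97). Those higher in FatK5 included the myelin proteins Mbp (-3.52 ± 0.54, or -2.89 without array 2 of both sets) and Pmp22 (-2.16 ± 0.32) and the lineage factor Sox10 (-1.35 ± 0.27). The sums of the list were 942 to 1096 in FatK1 against 4189 to 8692 in FatK5. Of the satellite cell list 4 of 6 tested were higher in FatK5, with Chodl at -4.68 ± 0.29 and Cdh15 at least 10.2-fold, while its defining gene Pax7 was detected on no array. Smooth muscle markers were higher in FatK5 in 6 of 10 and fibroblast markers in 4 of 9, or 7 without FatK5 array 2. In FatK1, 0 smooth muscle markers and 1 fibroblast marker were higher. White fat markers did not favour FatK1, with 2 higher there (Lep and Nnat), 3 higher in FatK5, and Retn and Tcf21 detected on none. B cell markers were detected on none of the 6 arrays in 5 of 5. The share of these cells in the differences above was not tested.

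The arrays numbered 2 had features in common across the sets. On array 2, 500 probes in FatK1 and 552 in FatK5 lay 2-fold or more beyond both other arrays of the set, and 56 did so upwards and 24 downwards in both. Array 1 gave 6 and 10 such probes in common and array 3 gave 3 and 2. Neutrophil transcripts were the plainest. The calgranulin S100a8 gave 1817, 11650 and 1216 in FatK1 and 175, 15630 and 1567 in FatK5, and the stefin Stfa1 45.2, 2276 and 43.2 in FatK1 and 10.4, 3228 and 62.5 in FatK5. The summed neutrophil signal was 18340 and 27010 on the 2 arrays numbered 2 against 301 to 2875 on the other 4, and 0 of 9 neutrophil genes passed the test between the sets. With array number as a block, Camp and Ltf were higher in FatK5 (limma adjusted p = 0.0379 and 0.0487), and without FatK5 array 2, 1 gene was higher in FatK1. The clock outputs Dbp and Nr1d1 were high on array 2 as well (26.8, 395 and 42.1 and 117, 415 and 116 for Nr1d1), and Col3a1 was low (1468, 367 and 739.8 and 3823, 506 and 2395). With array number as a block, Nr1d1 and Col3a1 passed the test between the sets (limma adjusted p = 0.0468 and 0.00903). Array 2 is also the one with Xist, and sex, animal and preparation cannot be told apart there.

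**Figure D4:**
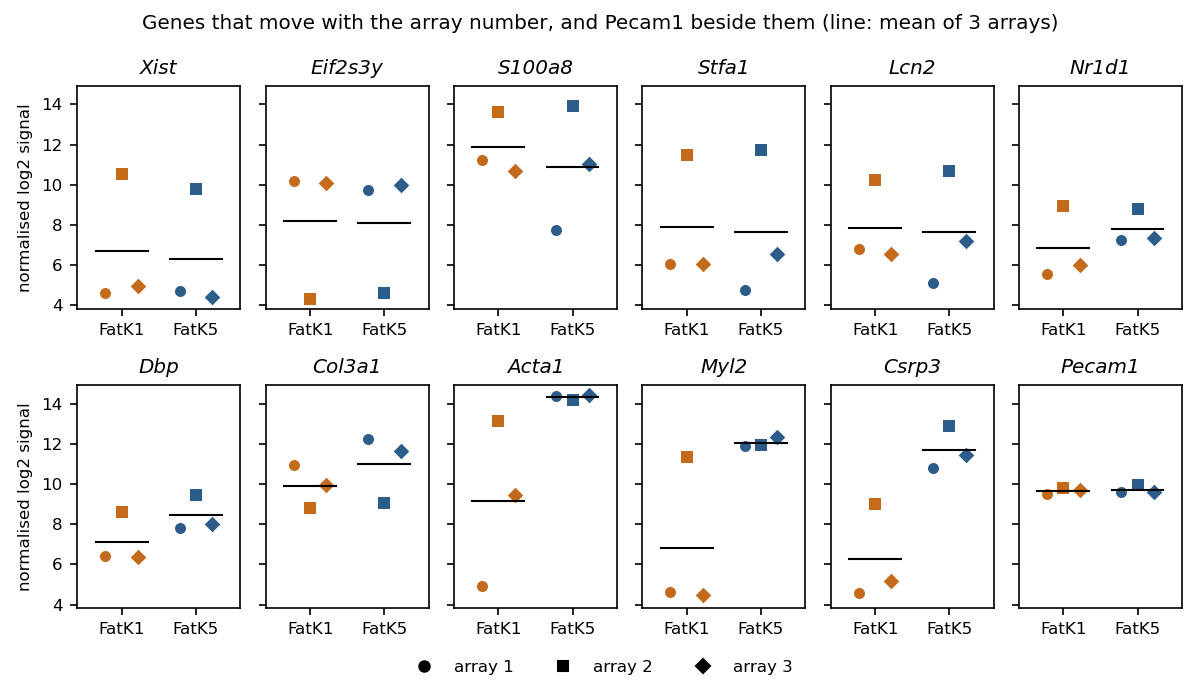
Normalised log2 signal of 12 genes by set and array number on the untreated arrays, with the mean of each set as a line. Xist, S100a8, Stfa1, Lcn2, Nr1d1, Dbp and Csrp3 are highest on array 2 of both sets, and Eif2s3y and Col3a1 are lowest there. Acta1 and Myl2 are highest on array 2 of FatK1 but not of FatK5. Pecam1 is also highest on array 2 of both sets, by less (9.53, 9.82 and 9.69 in FatK1 and 9.59, 9.97 and 9.59 in FatK5).

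The same contrast was read on the 6 shFoxd3 arrays of the 2 mouse labels. These arrays are in neither set mean of the untreated comparison, but they were normalised and fitted together with the untreated arrays. The spread per probe, and with it the standard errors, was shared, so the shFoxd3 contrast is not an independent check. Of the 10294 probes called on the untreated arrays, 10094 (98.1%) had the same sign there and 8096 were also called, where 48.3% of all tested probes were called. Both comparisons carry the same 2 mouse labels. Fat programs had medians of 3.14 for lipid droplets, 1.87 for fatty acid oxidation and 1.32 for brown fat thermogenesis. Ucp1 gave 13470, 10610 and 15220 on the FatK1 and -19.0, 23.6 and -7.33 on the FatK5 shFoxd3 arrays. The 4 lists of muscle structure and calcium handling had medians nearer 0: -2.73 for the fast sarcomere (7 of 13 called), -1.81 for slow and cardiac genes (7 of 14), -3.57 for the scaffold (19 of 19) and -3.38 for calcium handling (16 of 19). Myogenic transcription factors had a median of -1.66 (7 of 9). The FatK1 shFoxd3 arrays carried muscle signal on all 3, with 24040, 23690 and 7955 for Acta1 and 3961, 3227 and 1129 for Myh4, against 24190, 29020 and 26170 in FatK5. Their difference of differences did not pass for either gene (adjusted p = 0.393 and 0.194). All 6 shFoxd3 arrays had Xist (664.5 to 1470) and none had detectable Eif2s3y, whereas 2 of 3 untreated arrays of each set had Eif2s3y. Among the tested genes of all lists, 0 passed the test of the difference of differences, which 2 probes passed in all (0.0103%).

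**Figure D5:**
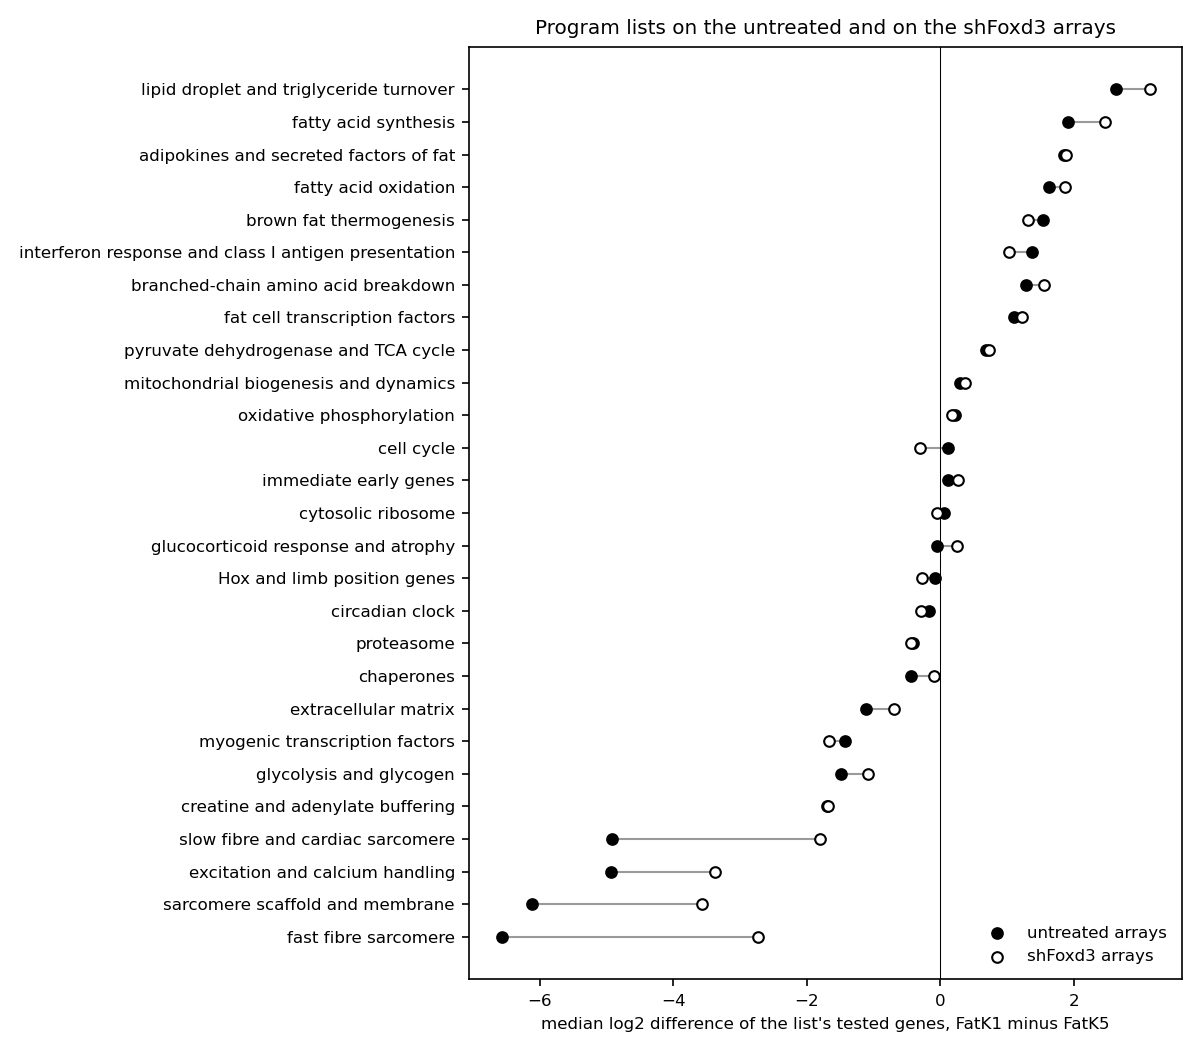
Median log2 difference (FatK1 minus FatK5) of the tested genes of each program list on the untreated arrays (filled) and on the shFoxd3 arrays (open). Lipid droplet genes have medians of 2.63 and 3.14 and brown fat thermogenesis 1.54 and 1.32, and the 4 muscle structure lists move towards 0 on the shFoxd3 arrays, the fast sarcomere from -6.57 to -2.73.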

How the data were processed

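Per the deposited files, the authors' non-normalised table holds, for each of 18 Illumina arrays, a bead-averaged probe signal (linear intensity, below 0 where background was subtracted) and a detection p-value; the software that made them is not given in the sources used here. Of 45281 probes, 43 were left out for signals of more than 7 significant digits. Gene names came from the platform annotation (34885 probes with 1 symbol, 18 with several, 10378 with none), and 34807 of these probes matched RefSeq. The deposited series matrix intensity values served as an alternative.

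The signals of all 18 arrays were corrected and quantile normalised with neqc (offset 16) and fitted as 6 group means with limma 3.58.1 in R 4.3.3 (eBayes with trend, two-sided, Benjamini-Hochberg). The test covered the 19397 probes detected (p-value under 0.05) on 3 or more of the 6 untreated arrays. The code was tested on simulated data. Array number paired the arrays: deviations of same-numbered arrays from their set means correlated at 0.253, 0.305 and 0.148. A fit of the 6 untreated arrays alone, with array number as a block, was an alternative beside those in the closing section. On the 6 arrays the mean signal was 181 to 231 and 17923 to 19971 probes were detected; the number of arrays limits the precision.

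The comparison, the gene lists and their members were chosen with earlier results of these data known. The text names up to 6 genes per list by size of difference, defining genes not detected, genes called against their list, the 10 largest rises and falls outside the lists and the 10 brightest shared genes. Further genes, among them Acta1, Atp2a1, Myl2, Lpl, Gapdh, Col1a1, S100a8, Tfam and the 5 related pairs, were named after their values were seen. No protein sequences were used here. A further item of the genotype is not reported here.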

Additional observations from a re-analysis of the deposited data

Results flagged for a closer look

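For 2 genes outside the lists the FatK1 minus FatK5 difference was not the same on untreated and shFoxd3 arrays, by limma's test of the difference of differences over 19397 probes (0.0103% called). For Tiam1, an exchange factor for the GTPase Rac, the difference was 0.89 ± 0.22 on untreated and -1.58 ± 0.22 on shFoxd3 arrays, so that the difference of differences was 2.47 ± 0.31 (adjusted p = 0.00514). Its signal was 91.3, 171 and 142 in untreated FatK1 and 84.2, 75.4 and 54.6 in untreated FatK5, against 227, 192 and 126 and 380.4, 604 and 757 on the shFoxd3 arrays. Tiam1 was thus highest on the 3 FatK5 shFoxd3 arrays. For Lrmda the difference was 0.75 ± 0.19 on untreated and 2.44 ± 0.19 on shFoxd3 arrays (difference of differences -1.69 ± 0.26, adjusted p = 0.0476). Its signal was faint, at most 23.2 on untreated arrays, and 93.1 to 137 on the FatK1 shFoxd3 arrays. All 6 shFoxd3 arrays were Xist-positive and 4 of the 6 untreated arrays were not, so treatment and sex-linked transcripts cannot be told apart here.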

How the results depend on the processing

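Probes higher in FatK1 numbered 5728 and in FatK5 4566. With the series matrix values the former fell to 3802 and the latter to 3115. Leaving out 1 array gave 5212 to 5652 and 4251 to 4525, and leaving out array 2 of both sets 5490 and 4350. With array number as a block the counts were 5102 and 4014; of 304 named probes, 3 lost and 10 gained a call under that block. With median scaling the counts were 6444 and 3487, so that 64.9% of calls were higher in FatK1 in place of 55.6%, and the median over all probes was 0.19 in place of 0.07. Under it Atp5b and Fth1, shared before, were called higher in FatK1, with 0.48 (adjusted p = 0.000345) and 0.44 (adjusted p = 0.00268), and 11 named probes lost their call. The 6 arrays normalised and fitted alone, without the block, gave 4708 and 3741. Shared genes numbered 1070, or 579 with the block, 635 with the 6 arrays alone, 719 with median scaling, 2090 with an offset of 50 and 0 with the series matrix values; the cause was not tested. The proteasome and matrix lists had 8 and 7 genes higher in FatK5 with the 6 arrays alone, and the oxidative phosphorylation list 1 higher in FatK1 with the series matrix values. The numbers of falls in the 5 muscle lists moved by over 1.5 times in 1 setting, detection on all 6 arrays, which drops genes undetected in FatK1. Of the falls, 4 of 12 were left in the fast sarcomere, 2 of 14 in slow and cardiac genes and 7 of 19 in the scaffold. In calcium handling 6 of 19 were left, and in myogenic factors 2 of 9. The counts over all probes were then 4227 and 3272. The medians of the 5 lists moved more: with an offset of 50 calcium handling was at -3.83, and without FatK1 array 1 the fast sarcomere was at -5.56. Signals within background limit the faint regulators, whose folds are bounds.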
